A study of Mus musculus with 6 samples.

Results

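The chaperone genes described here are Cryab, Hspb1, Hsp90aa1, Hsp90ab1, Hsp90b1, Bag3, Dnajb5, Dnaja1 and Hsph1, taken by symbol from the platform annotation with all of their probe sets. Of these 9 genes, 8 were found, with 11 of the 12488 probe sets in the table and 8 of the 8251 genes that had a probe set of their own, and Hsp90ab1 was not analysed here. The genes were proposed with the signals of these same arrays in view, so their values are a description and no test was made of them.

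RNA came from the tibialis anterior, a muscle at the front of the shin, of mice, taken 48 h after the leg had been exercised by a non-invasive method. The eccentric group had made 50 contractions in which the active muscle was lengthened, and the isometric group 50 contractions at fixed length. The control group was the leg opposite an exercised leg, stimulated only as far as a reading of isometric torque required, and the labels do not say from which kind of animal these legs came. For each group the total RNA of 4 animals was pooled and the pool was divided onto 2 Affymetrix MGU74Av2 arrays, called A and B, so a group is 1 biological sample, and the spread between its arrays covers labelling and hybridisation but not animals. The sources used here do not give strain, sex, age or genotype. In whole muscle, fewer cells of a type and less RNA per cell cannot be told apart.

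Chaperones hold or refold proteins that have lost their shape. Small heat shock proteins such as Cryab and Hspb1 bind unfolding proteins without using ATP, and in muscle Cryab is found at the Z-disc and on desmin filaments. Hsp90 proteins use ATP to bring clients to their final fold: Hsp90aa1 is the stress-inducible and Hsp90ab1 the constitutive cytosolic form, and Hsp90b1, also called Grp94, works in the endoplasmic reticulum. Hsp70 proteins are driven by J-domain partners (Dnaja1, Dnajb5), which start their ATP cycle, and by exchange factors (Hsph1, Bag3), which release the nucleotide. Bag3 also ties Hsp70 to small heat shock proteins and sends damaged filamin of the Z-disc to autophagy.

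Signals are deposited intensities in arbitrary units. Values under a floor, set at the 40th percentile of all signals (120.8), were raised to it before log2 was taken. A gene counted as measured in a comparison if both arrays of either pool exceeded the floor. It was called higher or lower if the log2 means were 1 or more apart, which is 2-fold, and if each of the 4 pairings across the pools (A or B against A or B) pointed the same way. Where a gene had several probe sets, its brightest probe set on average stood for it. Signals of different probe sets cannot be set against each other, because probes differ in how well they bind.

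The 6 arrays had median signals of 186.9 to 197.2, and 59.2% to 61.2% of probe sets lay above the floor on each. Between arrays A and B of the same pool the log2 signal differed with an SD over genes of 0.39 for control, 0.27 for eccentric and 0.39 for isometric RNA. The signal of 18S rRNA was 15860 on control A against 3870 on control B, and 23476 on isometric B against 1761 on isometric A. For beta-actin the 3' probe set divided by the 5' one, which reflects RNA integrity, gave log2 ratios of 0.43 and 0.45 on the eccentric arrays and 0.01 to 0.28 on the other 4. For Gapdh the same ratio was highest on isometric B, at 0.27, against 0.12 and 0.13 on the eccentric arrays and -0.07 to -0.05 on the other 3. The part of these differences in the results was not tested. Skeletal muscle markers were present: 12 of 13 lay above the floor on all 6 arrays, Ckm at 12909 to 21587 and Acta1 at 30642 to 41439, and Myh2 was below it on every array.

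Hsp90aa1, Cryab and Hsp90b1 were at least 2-fold higher in the eccentric than in the control pool, and Dnajb5 was lower. Of the 8 genes 7 were measured in this comparison, with 3 higher, 1 lower and 3 neither, where 5.16% of 5682 genes were higher and 1.06% lower. The median log2 difference of the 7 was 0.76, against -0.02 over all genes measured. In the isometric against the control pool 0 of 7 were higher and 0 lower, where 0.915% and 0.323% of 5574 genes were, and the median was 0.41 against -0.01 over all genes. Between the eccentric and the isometric pool 2 of 6 measured genes were higher, Cryab and Hsp90aa1, and 0 lower, where 1.73% and 0.676% of 5622 genes were, and the median was 0.73 against 0.02. The pools did not overlap, so that all 4 pairings lay on one side of 0, for 6 genes above and 1 below in the eccentric against the control pool, where 30.8% and 31% of all genes were so. The same held for 4 above and 1 below in the isometric against the control pool, beside 18.9% and 18.4%, and for 5 above and 0 below in the eccentric against the isometric pool, beside 28.5% and 25.1%. Because the genes were chosen on these contrasts, nothing is read from these shares. In the eccentric pool the summed signal of macrophage markers was 2.93-fold and that of muscle fibre markers 0.812-fold that of the control pool, and their part in these counts was not tested. Each pool enters 2 of the 3 comparisons, so the comparisons share arrays.

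**Figure D1:**
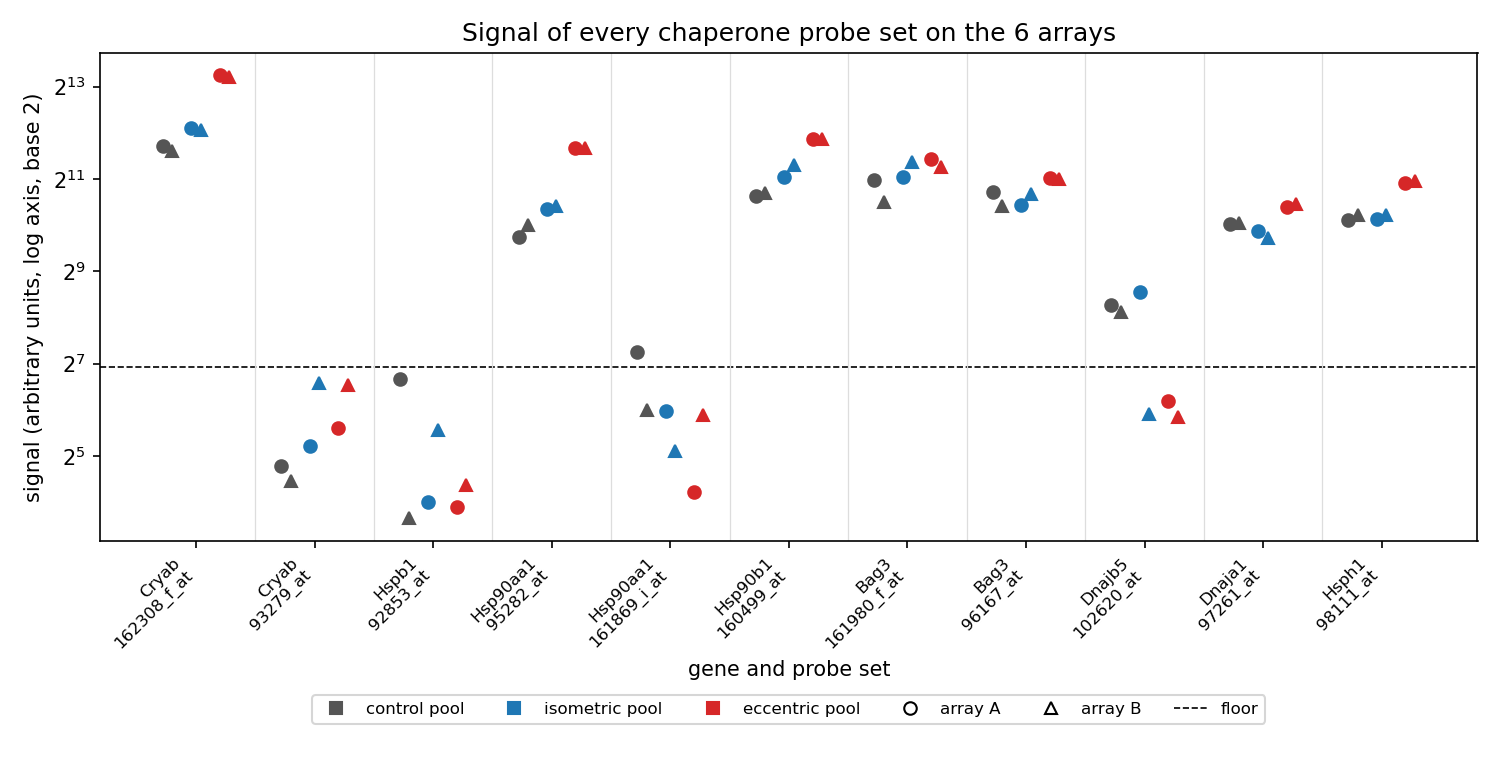
Signal (arbitrary units, log axis of base 2) of the 11 chaperone probe sets, with 1 point for each of the 6 arrays, coloured by pool and shaped by array letter, and the floor of 120.8 as a dashed line. Heights can be compared within a probe set only. The eccentric arrays lie above the other 4 for Cryab 162308_f_at, Hsp90aa1 95282_at, Hsp90b1, Bag3 96167_at, Dnaja1 and Hsph1, and Cryab 93279_at and Hspb1 lie below the floor on all 6 arrays.

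Cryab, the small heat shock protein also known as alpha-B crystallin, was measured by probe set 162308_f_at. Its signals were 3344.3 and 3140.2 on the control arrays, 4373.0 and 4247.3 on the isometric arrays and 9739.7 and 9542.1 on the eccentric arrays. The 3 pools did not overlap, and they stood in the order control, isometric, eccentric. The eccentric pool was 2.97-fold above the control pool, a log2 difference of 1.57 ± 0.05 (SE over arrays, n = 2 arrays of 1 pool each), which ranked 75 from the highest of 5682 genes. Against the isometric pool it was 2.24-fold higher, a log2 difference of 1.16 ± 0.03. The isometric pool was 1.33-fold above the control pool, a log2 difference of 0.41 ± 0.05, short of the 2-fold rule.

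The second Cryab probe set, 93279_at, gave 21.9 to 96.2 and lay below the floor on all 6 arrays, so it gave no difference in any comparison. The mean of both probe sets differed by 0.79 between the eccentric and the control pool, under the 2-fold limit. Raising the second to the floor fixed its difference at 0, so this mean is no check on the first. The value for Cryab thus rests on a probe set whose suffix _f_at marks probes that several similar sequences can share, and its share of cross-hybridisation was not tested. Hspb1, the small heat shock protein Hsp25 of the mouse, had 12.5 to 101.8 on its single probe set, 92853_at, also below the floor on every array, so no difference can be given for it.

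Other small heat shock genes were set beside Cryab. Of 8 listed 4 had a probe set and 3 were measured in the eccentric against the control pool. Of these 1 was higher and 0 lower, where 5.16% and 1.06% of all genes were, and the median log2 difference was 0.50. The higher gene was Hspb8, a partner of Bag3, at 11056 ± 147 (SD, n = 2 arrays) against 5362 ± 565, a 2.07-fold difference. Its second probe set, 162448_f_at, also passed, with a log2 difference of 1.08, but with control B left out the first had 0.94 and did not. In the isometric pool Hspb8 was 5783 ± 201, 1.08-fold above the control pool. Hspb2, whose gene lies beside Cryab, had 12312 ± 162 in the eccentric, 10136 ± 1439 in the isometric and 8807 ± 1810 in the control pool and passed in none of the 3 comparisons (named after its values were seen).

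Hsp90aa1, the inducible cytosolic Hsp90, had the largest increase among the 7 measured genes in the eccentric against the control pool. Probe set 95282_at gave 855.3 and 1023.4 on the control arrays, 1308.8 and 1367.9 on the isometric arrays and 3262.4 and 3272.5 on the eccentric arrays. Again the pools did not overlap and the isometric pool stood between the other 2. The eccentric pool was 3.49-fold above the control pool, a log2 difference of 1.80 ± 0.13, ranking 37 from the highest of 5682 genes. It was 2.44-fold above the isometric pool, at a log2 difference of 1.29 ± 0.03. The isometric pool was 1.43-fold above the control pool, with pairings of arrays from 0.35 to 0.68 on the log2 scale, and did not pass. A second probe set, 161869_i_at, lay above the floor on control A alone, at 153.5, and at 18.5 to 63.5 on the other 5 arrays, so it was not measured in any comparison. The mean of both probe sets differed by 0.82 between the eccentric and the control pool and did not pass. The second was raised to the floor on those 5 arrays, which drew the mean towards 0, so it is no check on the first.

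Hsp90b1, the Hsp90 of the endoplasmic reticulum, was 2.31-fold higher in the eccentric than in the control pool. Its signals on probe set 160499_at were 1580.1 and 1656.6 on the control arrays, 2116.3 and 2526.6 on the isometric arrays and 3724.7 and 3758.1 on the eccentric arrays. The isometric arrays differed from each other more than those of the other pools, but all of them lay above the control and below the eccentric arrays. The log2 difference was 1.21 ± 0.03 for the eccentric against the control pool, 0.52 ± 0.13 for the isometric against the control pool and 0.69 ± 0.13 for the eccentric against the isometric pool, the last 2 short of 2-fold.

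**Figure D2:**
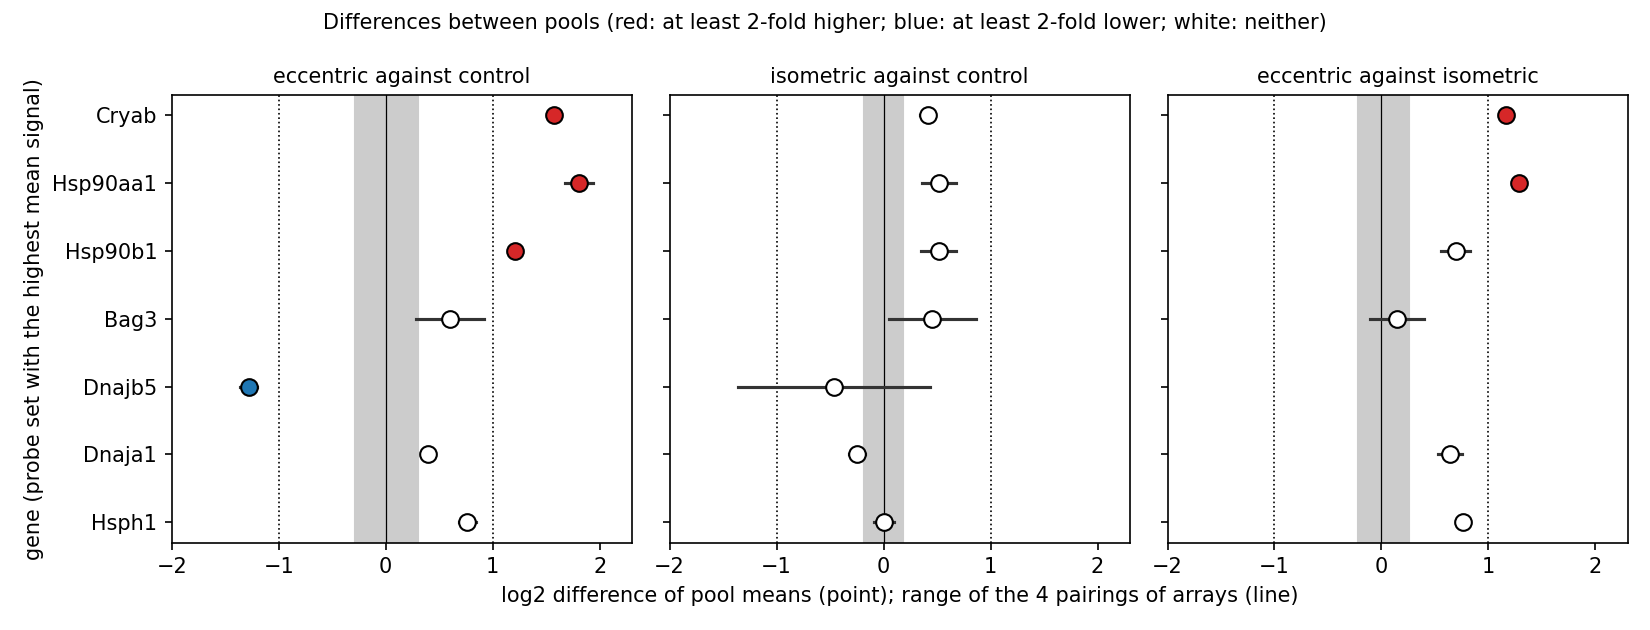
Log2 difference of pool means for the 7 measured chaperone genes in the 3 comparisons (points, red where at least 2-fold higher, blue where at least 2-fold lower, white otherwise), with the range of the 4 pairings of arrays (lines), the quartiles of all measured genes (grey band, -0.29 to 0.30 in the first panel) and the 2-fold limits (dotted). Hsp90aa1, Cryab and Hsp90b1 lie right of the upper limit for eccentric against control, and Hsp90aa1 and Cryab for eccentric against isometric, where Dnajb5 was not measured and has no point, while 0 genes pass for isometric against control.

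Because Hsp90b1 belongs to the endoplasmic reticulum, the other chaperones of that compartment were set beside it. Of 17 measured in the eccentric against the control pool 3 were higher and 0 lower, 14 stayed under 2-fold, and all 17 differences lay above 0, with a median of 0.55 (between 0.49 and 0.63 on leaving out single arrays). That number above 0 was 13 with control A left out and 14 under quantile normalization. Over all genes in this comparison 5.16% were higher and 1.06% lower, and the median was -0.02. The higher genes were Manf, a secreted stress protein, at 1216 ± 29.0 against 475 ± 48.0, Hspa5, the Hsp70 of this compartment also called BiP, at 4322 ± 17.9 against 1945 ± 31.4, and Pdia3, a disulfide isomerase, at 1012 ± 121 against 496 ± 121. The call of Pdia3 was lost without control A and without eccentric B, at log2 differences of 0.79 and 0.92. In the isometric against the control pool 0 of 17 passed, with 14 above 0 and a median of 0.31, which was 0.15 without isometric A and 0.38 without control B. Among all genes 0.915% were higher and 0.323% lower there, and the median was -0.01. Hspa5 had 3762 ± 484 in the isometric pool, 1.93-fold above the control pool, with a log2 difference of 1.08 that passed once isometric A was left out. Manf had 838 ± 108, 1.76-fold above it, and Pdia3 had 793 ± 396, with a log2 difference of 0.60 that became 1.14, and passed, without isometric B. Between the exercised pools 0 of 17 passed, and the median was 0.25. Without isometric A 1 was higher in the eccentric pool and the median was 0.40. Among all genes 1.73% were higher and 0.676% lower between these pools, and the median was 0.02.

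The region just before the start of Hsp90b1 is shown because genes of the endoplasmic reticulum stress response carry a known promoter element, in which CCAAT is followed by 9 bases of any kind and then CCACG, searched on both strands. These are the 250 bases upstream of the start in RefSeq (GRCm38.p6, chr10:86705445-86705694, minus strand), 5′ to 3′, with matches to the element in capitals.
Hsp90b1: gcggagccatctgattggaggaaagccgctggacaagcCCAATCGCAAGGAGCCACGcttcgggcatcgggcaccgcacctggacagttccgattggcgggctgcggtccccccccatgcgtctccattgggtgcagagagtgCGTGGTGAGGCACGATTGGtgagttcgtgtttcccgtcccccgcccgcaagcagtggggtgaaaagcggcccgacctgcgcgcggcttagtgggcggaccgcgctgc
The window held 2 matches, from 212 to 194 and from 107 to 89 bases before the start. Over the windows of 27025 genes, each taken at its most upstream start, 33 held at least 1 match, or 0.122%. The CCAAT that opens the element was found on either strand in 34.5% of windows, with or without the rest of the element. Among the 18 endoplasmic reticulum chaperones with a window in the table, 6 held the element, each once, and these are the matches, 5′ to 3′ on the gene's strand.
Calr (chr8:84847075-84847093, minus strand): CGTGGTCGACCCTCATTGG
Canx (chr11:50325800-50325818, minus strand): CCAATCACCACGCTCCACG
Creld2 (chr15:88819520-88819538, plus strand): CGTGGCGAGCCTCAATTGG
Dnajc3 (chr14:118937827-118937845, plus strand): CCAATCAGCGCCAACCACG
Hspa5 (chr2:34772025-34772043, plus strand): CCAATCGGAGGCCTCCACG
Pdia6 (chr12:17266491-17266509, plus strand): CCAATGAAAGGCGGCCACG
Of these 6, Hspa5 passed in the eccentric against the control pool, as Hsp90b1 did. Canx, Creld2, Dnajc3 and Pdia6 did not pass, at log2 differences of 0.09, 0.76, 0.39 and 0.90, and Calr was not measured. Manf and Pdia3, which passed, had no match in this window. A match is a run of letters, and no binding was measured here. The element was searched after the values had been seen.

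Bag3, the co-chaperone of Hsp70 and Hspb8, did not pass the 2-fold rule in any comparison on either probe set. Probe set 161980_f_at gave 2024.6 and 1457.0 on the control arrays, 2097.8 and 2649.5 on the isometric arrays and 2759.5 and 2461.3 on the eccentric arrays. Probe set 96167_at gave 1693.1 and 1366.2, then 1381.6 and 1641.0, then 2071.3 and 2052.5 in the same order of pools. On both probe sets the eccentric arrays lay above the control arrays, by 1.52-fold and 1.36-fold. The probe sets differed on the isometric pool, which was 1.37-fold above the control pool on the first, a log2 difference of 0.46 ± 0.29, and level with it on the second, at -0.01 ± 0.20. The eccentric and isometric arrays overlapped on the first probe set and did not on the second, where the log2 difference was 0.45 ± 0.12.

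Partners of Bag3 and Cryab at the Z-disc and in selective autophagy had a median log2 difference of -0.01 over 13 measured genes in the eccentric against the control pool, with Hspb8 higher, 0 lower and 12 not passing. In the isometric against the control pool 0 of 13 passed, with a median of 0.11. Other Bag proteins and exchange factors of Hsp70 had 0 of 8 called and a median of -0.10 in the eccentric against the control pool, and 0 of 7 and 0.07 in the isometric against the control pool. Over all genes measured in these comparisons the medians were -0.02 and -0.01, and 5.16% and 0.915% were higher.

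Hsph1, also called Hsp105 or Hsp110, releases nucleotide from Hsp70. Its signals were 1109.7 and 1193.0 on the control arrays, 1123.2 and 1187.2 on the isometric arrays and 1918.8 and 1987.7 on the eccentric arrays. The isometric arrays lay within the range of the control arrays, and the eccentric arrays lay above all 4. The eccentric pool was 1.70-fold above the control pool and 1.69-fold above the isometric pool, with log2 differences of 0.76 ± 0.06 and 0.76 ± 0.05, under the 2-fold limit in both cases. Between the isometric and the control pool the log2 difference was 0.01 ± 0.07, and it changed sign with the array left out, from -0.05 to 0.06.

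Dnaja1, a J-domain partner of Hsp70 in the cytosol, had 1047.7 and 1051.8 on the control arrays, 931.0 and 840.8 on the isometric arrays and 1345.8 and 1413.5 on the eccentric arrays. Here the isometric arrays lay below the control arrays and the eccentric arrays above them, and no pools overlapped. The eccentric pool was 1.31-fold above the control pool, a log2 difference of 0.39 ± 0.04, and the isometric pool was 1.19-fold below it, at -0.25 ± 0.07. Between the exercised pools the difference was 1.56-fold, at 0.64 ± 0.08. None of these passed the 2-fold rule.

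Dnajb5, another J-domain protein, was the only chaperone of the 7 that was lower in the eccentric pool, and its arrays disagreed. It had 310.3 and 278.3 on the control arrays and 72.7 and 57.7 on the eccentric arrays, which lay below the floor, so the eccentric pool was at least 2.43-fold lower. With a floor at the 60th percentile Dnajb5 was not measured. On the isometric arrays it had 375.0 on A, above both control arrays, and 60 on B, below the floor. The isometric pool therefore gave a log2 difference of -0.47 ± 0.82 against the control pool, which was -1.28 without isometric A and 0.35 without isometric B. Against the isometric pool Dnajb5 was not measured, and with isometric B left out it was lower by 1.63 on the log2 scale and passed.

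The upstream windows of Hsph1 and Dnaja1 are shown because heat shock genes carry elements built of repeated GAA units, which the factor Hsf1 binds. Capitals mark a form with 2 units, GAANNTTC or TTCNNGAA, each its own reverse complement. The sequences are from RefSeq (GRCm38.p6), chr5:149636337-149636586 on the minus strand for Hsph1 and chr4:40722218-40722467 on the plus strand for the most upstream start of Dnaja1, 5′ to 3′.
Hsph1: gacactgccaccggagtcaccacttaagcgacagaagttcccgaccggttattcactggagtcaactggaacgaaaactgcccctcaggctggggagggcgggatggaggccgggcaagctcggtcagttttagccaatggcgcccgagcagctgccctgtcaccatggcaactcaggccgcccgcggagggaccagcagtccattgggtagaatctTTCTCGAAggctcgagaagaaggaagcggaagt
Dnaja1: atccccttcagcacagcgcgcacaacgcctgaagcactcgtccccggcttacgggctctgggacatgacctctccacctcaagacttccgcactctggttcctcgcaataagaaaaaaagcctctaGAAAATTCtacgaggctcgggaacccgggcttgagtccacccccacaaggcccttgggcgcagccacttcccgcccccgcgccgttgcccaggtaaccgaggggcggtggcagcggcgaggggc
Of the 8 genes 6 had a window in the table, and 3 of the 6 held a form with 2 units: Hspb1 with 2 matches, and Hsph1 and Dnaja1 with 1 each. Over all 27025 genes 13.0% of windows held one. Each gene was counted at its most upstream start. The windows of Dnaja1 at its later starts held no such form, while the window of Hsph1 at its later start held the same match. The form with 3 units, GAA, TTC and GAA or TTC, GAA and TTC with 2 free bases between neighbours, which contains the shorter one, was found in 0 of the 6 and in 0.403% of all windows. Bag3 and Dnajb5 held neither form in these letters, and the windows of Cryab and Hsp90aa1 were not analysed here.

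Genes that work with the chaperones described above were counted by list in the eccentric against the control pool. Of 15 measured Hsp90 co-chaperones 1 was higher, 0 lower and 14 neither, with 3 differences above 0 and a median of -0.12, which was -0.05 without control A and -0.21 without control B. The higher gene was Tomm34, which binds Hsp70 and Hsp90 and takes part in import into mitochondria, at 687 ± 164 against 315 ± 44.6, and its call was lost without control B or eccentric A, at log2 differences of 0.97 and 0.87. Stip1, the adaptor that joins Hsp70 to Hsp90 (named after its values were seen), had 699 ± 3.9 against 858 ± 17.6. Of 16 other J-domain genes 0 passed, with a median of -0.03, which was 0.06 without control A or eccentric B and -0.09 without control B. Of 5 Hsp70 proteins and partners 1 was higher and 0 lower, with a median of 0.23. The higher gene was Hspa1a, the inducible Hsp70, at 4.35-fold above the control pool. Hspa1b was 1.71-fold above it, a log2 difference of 0.77, and did not pass. Over all genes in this comparison 5.16% were higher and 1.06% lower, and the median was -0.02.

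In the isometric against the control pool the Hsp90 co-chaperones had 0 of 15 called and a median of 0.06, but without control B 1 of 16 was higher and the median was -0.03. The J-domain genes had 0 of 16 called and a median of -0.04, which turned to 0.04 without isometric A. Among the 5 Hsp70 genes Hspa1b, nearly identical in sequence to Hspa1a, was lower at 198 ± 5.3 against 699 ± 16.9, and the median was -0.54. Over all genes in this comparison 0.915% were higher and 0.323% lower, and the median was -0.01. Between the exercised pools the co-chaperones had a median of -0.20 with 0 of 15 called, or 1 lower without eccentric A. For the J-domain genes 0 of 16 passed and the median was 0.11, which was 0.04 without isometric A and -0.05 without isometric B. Hspa1a and Hspa1b passed as higher in the eccentric pool. Their probe sets could share signal. Among all genes 1.73% were higher and 0.676% lower between the exercised pools, and the median was 0.02.

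**Figure D3:**
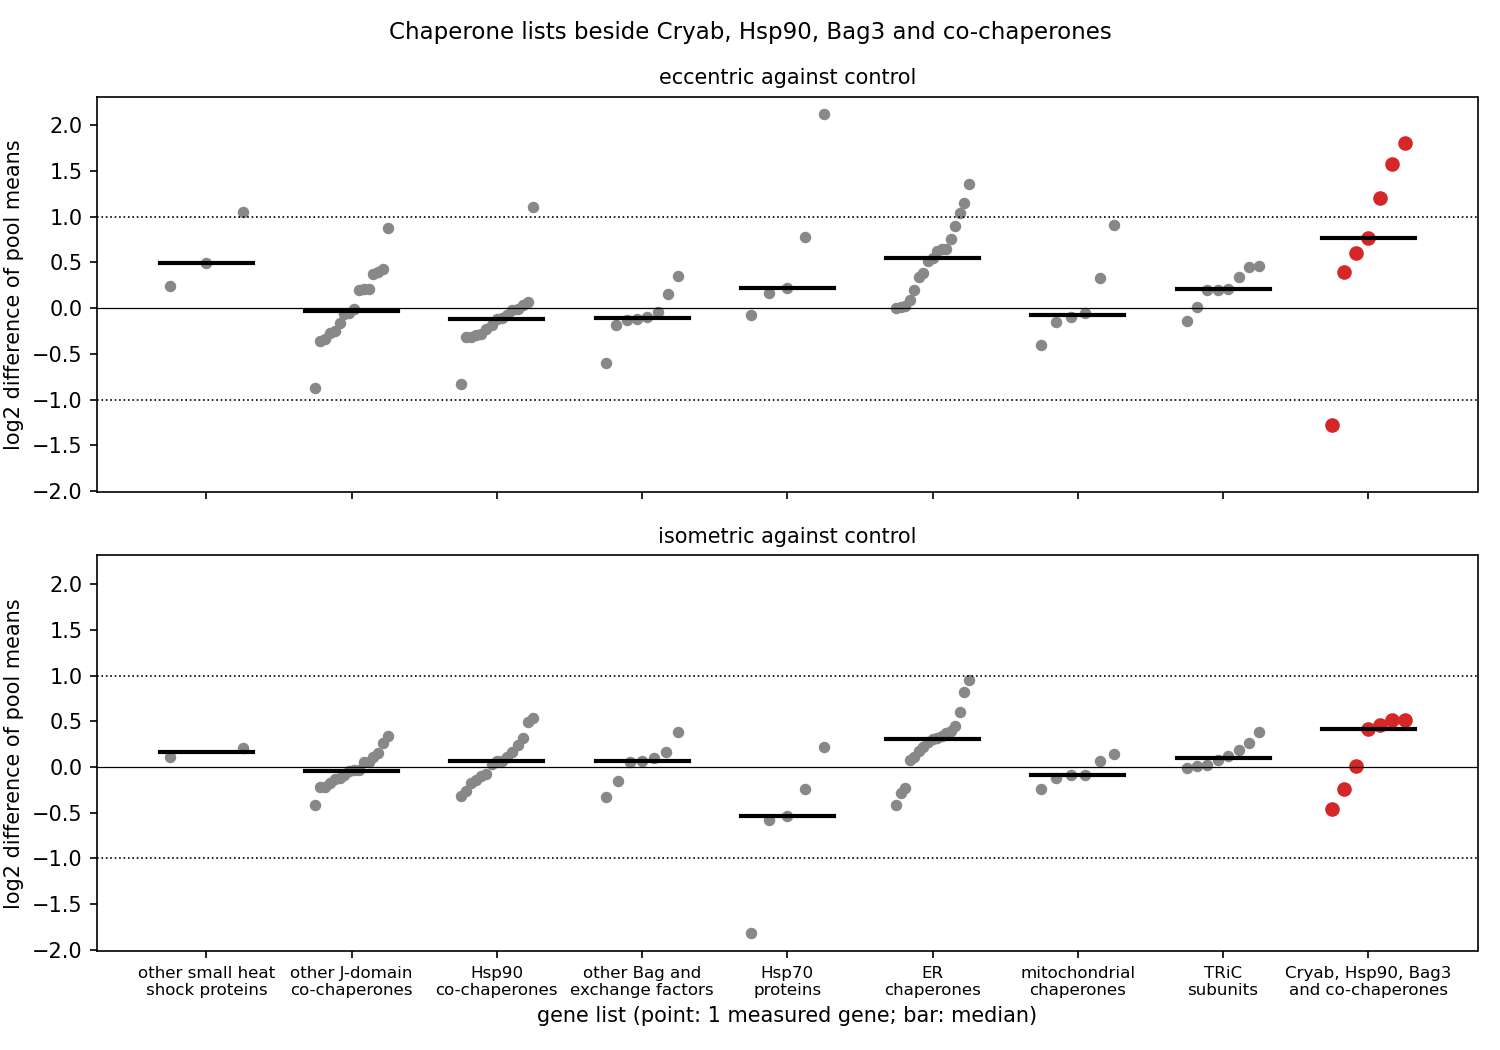
Log2 difference of pool means of each measured gene (points) in 8 chaperone lists and in the 7 measured chaperones described here (red), with the median of each list (bars) and the 2-fold limits (dotted), for the eccentric (top) and the isometric pool (bottom) against the control pool; ER stands for endoplasmic reticulum. The medians of the red points are 0.76 and 0.41, those of the endoplasmic reticulum chaperones 0.55 and 0.31, and those of the Hsp90 co-chaperones -0.12 and 0.06.

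Summed macrophage markers stood in the order control, isometric, eccentric, as Cryab, Hsp90aa1 and Hsp90b1 did, and this order rests on 1 pool per group. In the isometric pool the sum was 1.63-fold that of the control pool, beside 1.33-fold for Cryab and 1.43-fold for Hsp90aa1 and Hsp90b1. Of 15 measured macrophage markers 12 were higher in the eccentric than in the control pool and 0 lower, with a median log2 difference of 1.65, and the summed signal of the 16 on the array was 10593 and 11154 on the control arrays, 18197 and 17202 on the isometric arrays and 31945 and 31739 on the eccentric arrays. In the isometric against the control pool 3 of 14 were higher, or 4 of 15 without control A, 2 of 14 without control B and 1 of 15 without isometric B. Between the exercised pools 8 of 15 were higher in the eccentric pool. Among all genes 5.16%, 0.915% and 1.73% were higher in these comparisons, in the order given. None of the 16 was below the floor on all arrays, and Adgre1, which encodes the macrophage marker F4/80, had 65.0 on control A, below it, 156.8 on control B and 416.3 to 447.4 on the eccentric arrays. Of 12 measured muscle fibre markers 0 passed in each comparison, though 1 was called lower in the eccentric than in the isometric pool without eccentric B and 1 without isometric B. All 12 lay below 0 in the eccentric against the control pool, with a median of -0.28, which was -0.13 without control A, -0.46 without control B and -0.03 under quantile normalization, where 4 lay above 0. All 12 also lay below 0 in the eccentric against the isometric pool, with a median of -0.20, which was -0.45 without isometric A and 0.02, with 6 above 0, without isometric B. Their summed signals were 302976 to 374652 on the control, 265763 to 371263 on the isometric and 270982 to 279579 on the eccentric arrays. Summed endothelial markers (6185 to 7307 over the 6 arrays) and fibroblast markers (32900 to 36213) varied less than macrophage markers did. The fibroblast sum hides differences of single genes in both directions. In the eccentric against the control pool they ran from -0.41 for Col1a1 to 1.04 for Thy1, with 5 of 9 above 0 and a median of 0.34. The part of these cells in the chaperone signals was not tested.

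**Figure D4:**
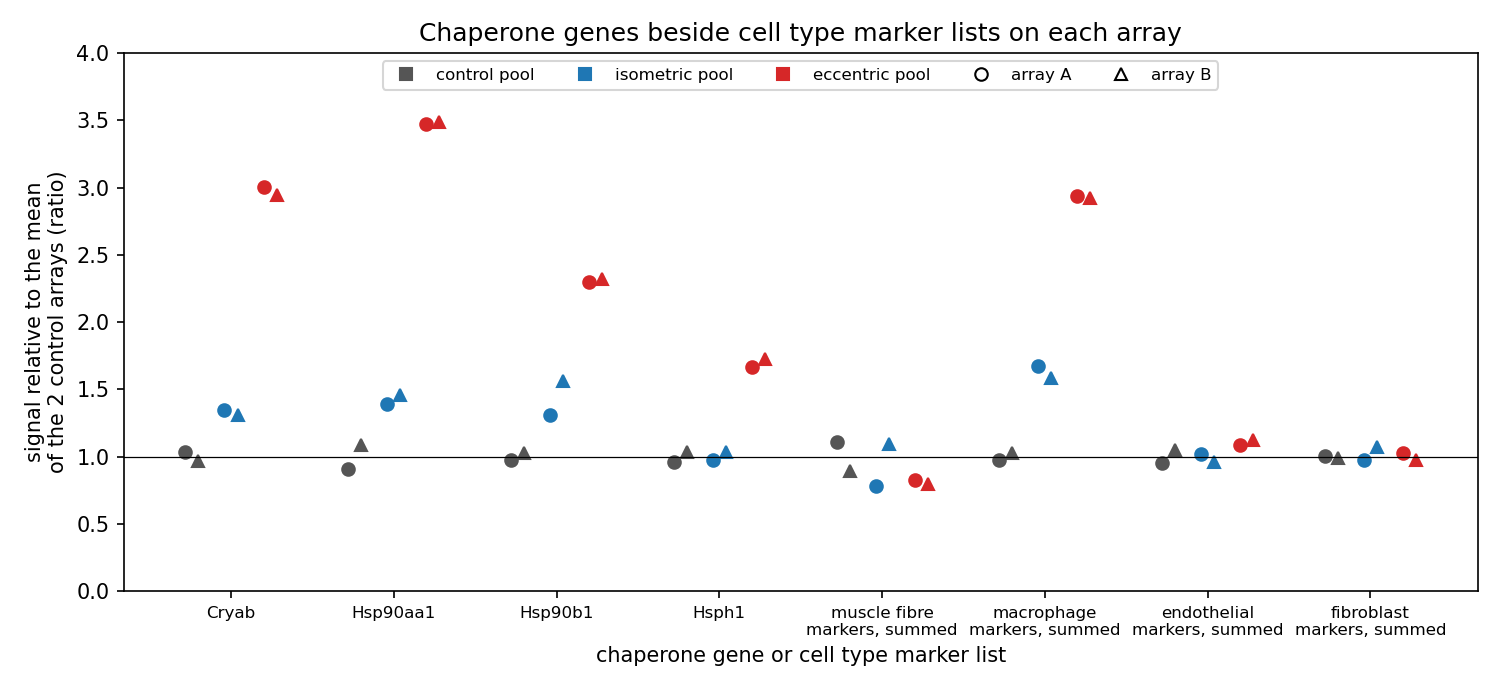
Signal on each of the 6 arrays divided by the mean of the control arrays, for 4 chaperone genes and for the summed signal of 4 cell type marker lists, coloured by pool and shaped by array letter. Summed macrophage markers were 2.93-fold above the control mean in the eccentric pool, close to Cryab there, and 1.63-fold in the isometric pool. The sums of muscle fibre, endothelial and fibroblast markers had ratios of 0.812 to 1.10 in both exercised pools, and sums do not show single genes.

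The genes whose signals were most like those of Cryab were sought by Euclidean distance over the 6 arrays, on log2 signals minus the control mean, among 4837 other genes above the floor on every array. The nearest were Grn (0.18), C3ar1 (0.20), Apobec1 (0.21), C1qb (0.22) and Ctss (0.25). Hsp90aa1 came at position 17 with 0.44, Hsp90b1 at 32 with 0.59, Hsph1 at 336, Bag3 at 442 and Dnaja1 at 1098. The nearest to Hsp90aa1 were Ctss (0.24), Uck2 (0.31), H2-Aa (0.32), Lcp1 (0.41) and Ccl9 (0.41), with Cryab at position 10. From Hsp90aa1, Hsp90b1 came at 60, Hsph1 at 376, Bag3 at 484 and Dnaja1 at 1158. C1qb and Ctss are in the macrophage marker list. These distances rest on 1 pool per group.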

How the data were processed

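Total RNA of 3 pools was measured on 6 Affymetrix arrays. For every probe set the authors deposited a linear intensity on each array; its software, background correction and probe summary are not given in these sources. Every array had a trimmed mean of 500.3 (2% removed at each end), so a shift of the whole transcriptome cannot be seen. Arrays were scaled to their average trimmed mean, floored at the 40th percentile and put on a log2 scale. Of 12488 probe sets 10833 had 1 gene in the platform annotation, 396 several, 1193 none and 66 were controls, and gene counts used the first kind. Promoter windows came from a RefSeq table matched by symbol. Because a group is 1 pool, no p-value was computed. With 2 arrays per pool the SE over arrays is itself rough, and it gives no precision over animals.

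The members and lists were chosen with earlier results of these data known. The text names every member and probe set, up to 4 list genes per list that passed the 2-fold rule, 5 nearest genes to Cryab and to Hsp90aa1, and preset cell type checks. Outside these rules it names the endoplasmic reticulum chaperones with a promoter match, and Myh2 and Col1a1 from the marker lists. Hspb2, Stip1, Hsbp1, Hsf2 and Hsf4 were also added, after their values were seen. Alternatives changed scaling, floor, filter, threshold and probe sets, and left out arrays. Python 3.11.15, numpy 2.4.6, pandas 2.3.3 and matplotlib 3.10.9 were used.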

Additional observations from a re-analysis of the deposited data

Results flagged for a closer look

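Dnaja1 stood on opposite sides of the control pool in the exercised pools, with both eccentric arrays above and both isometric arrays below both control arrays. Its log2 difference was 0.39 for the eccentric and -0.25 for the isometric against the control pool. The difference between these effects was not tested, the comparisons share the control arrays, and neither value reached 2-fold.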

How the results depend on the processing

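Counts of chaperones past the rule depended on the threshold and on the probe sets. With a 1.5-fold threshold 5 genes were higher in the eccentric against the control pool, where 12.2% of all genes were, and 5 against the isometric pool, where 7.70% were. With the mean of all probe sets of a gene, 1 (Hsp90b1) and 0 were higher. In that setting the second probe sets of Cryab and Hsp90aa1 were raised to the floor, except for Hsp90aa1 on control A. That drew both means towards 0, so the setting is no check on the calls of these genes. With a floor at the 60th percentile 0 were lower in the eccentric against the control pool, since Dnajb5 was no longer measured. With 1 array left out, lower calls ran from 0 to 1 in the isometric against the control pool and in the eccentric against the isometric pool (Dnajb5, without isometric A and without isometric B), and the other counts did not move. Without both control A and isometric B, a setting added after seeing the data, Dnajb5 made 1 lower call against the isometric pool. Of 200 recomputed differences of single genes 190 stayed within 1 SD between arrays, 10 moved further and 0 called differences changed sign. Leaving out 1 array of a pool, or 1 of each, cannot move a difference by more than this SD. A call needs every pairing of arrays to point the same way, so leaving out arrays cannot reverse it either. Signals as deposited were nearly the scaled ones, and a gene with a single probe set cannot move when probe sets are averaged. The counts therefore say little about how firm the differences are. Uncalled differences changed sign 8 times, for Dnajb5 and Hsph1 in the isometric against the control pool and Bag3 in the eccentric against the isometric pool. No paired analysis was possible because each group is 1 pool and no test was made; letters A and B name aliquots of a pool. Signals below the floor on every array, as for Hspb1, give no difference.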

Other observations

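Mitochondrial chaperones had 0 of 6 measured genes called and a median log2 difference of -0.08 in the eccentric and -0.09 in the isometric against the control pool. Subunits of TRiC, the cytosolic chaperonin that folds actin and tubulin, had 0 of 8 called in each, with medians of 0.21 and 0.10. Transcription factors and effectors of endoplasmic reticulum stress had 1 of 8 higher, Atf3, at 2363 ± 321 in the eccentric against 484 ± 43.8 in the control pool (a probe set whose probes may bind similar transcripts), and a median of 0.06. In the isometric pool Atf3 was the single one of 7 to pass, with a median of 0.11. Over all genes 5.16% were higher in the eccentric and 0.915% in the isometric against the control pool. Of the heat shock factors listed, Hsf2 and Hsf4 had a probe set and neither was measured in any comparison. Hsbp1, listed with them, encodes a protein that binds heat shock factor 1, and its log2 differences of -0.22 in the eccentric and -0.32 in the isometric against the control pool did not pass (these genes were named after their values were seen).

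Of 6 measured neutrophil markers 2 were higher in the eccentric than in the control pool and the median was -0.03, with a summed signal of 1871 to 2338 on the control arrays and 1826 to 2185 on the eccentric arrays. Of 9 fibroblast markers 1 was higher, with a median of 0.34, and of 9 endothelial markers 0, with a median of 0.02. Over all genes 5.16% were higher in this comparison, and the median was -0.02.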
